A study of Mus musculus with 118 samples.

Results

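The Hedgehog pathway genes described here are the 9 core genes that encode the ligands Shh, Ihh and Dhh, the receptor Ptch1, the signal transducer Smo, the inhibitor Hhip and the transcription factors Gli1, Gli2 and Gli3. They were chosen by name, for their role in the pathway and by a rule that uses no measured value, though with earlier results of these data known, out of 26180 genes with a curated RefSeq transcript on mm10 (GRCm38.p6). Each was compared with peak lists for 3 Polycomb proteins in untreated mouse embryonic stem cells (ESCs): RING1B, the ubiquitin ligase of Polycomb repressive complex 1 (PRC1), SUZ12, which scaffolds the methyltransferase complex PRC2, and PCGF2, which marks the canonical form of PRC1. A promoter was the 2500 bp on either side of a transcription start site (TSS), and a gene had a peak if at least 1 bp overlapped.

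The series holds 118 calibrated ChIP-seq samples in 42 groups, in which cells of another species were added as an internal standard. For the samples behind the lists used here these were human HEK293T cells. For each of the 3 proteins there were 3 untreated samples of PRC1CPM cells (strain E14, clone 41), in which Ring1a carries I50A/D53K and tamoxifen switches Ring1b from wild type to I53A/D56K by way of Rosa26::ERT2-Cre. For SUZ12 there were also 3 untreated samples of PRC1CKO cells (strain E14, clone B9), which are Ring1a-/- and delete the floxed Ring1b alleles with the same Cre. RING1A was therefore mutant or absent already before tamoxifen in every cell used, RING1B was still wild type, and each line is a single clone. The RING1B list also draws on PRC1CKO data from outside these samples. The lists held 18643 RING1B, 7438 SUZ12 and 3680 PCGF2 peaks as positions only, with no height, replicate or depth. No error could therefore be given and no test was made. A gene without a peak in a list cannot be read as unbound, and signal in tamoxifen-treated cells was not analysed here. The lists hold no expression values against which the cell type could be checked. For orientation, the pluripotency genes Pou5f1 and Sox2 had only a RING1B peak at a promoter, Nanog had no peak in any list, and Klf4 had peaks in all 3.

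Hedgehog ligands are secreted proteins that pattern the neural tube, limbs, skeleton and gonads. Without ligand, PTCH1 holds the membrane protein SMO inactive. Binding of ligand to PTCH1 releases SMO, which acts at the primary cilium to shift GLI2 and GLI3 from repressor to activator forms, and GLI1, PTCH1 and HHIP are themselves induced by the pathway. Polycomb complexes are known for keeping genes of this kind silent until lineages are specified.

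Polycomb complexes are typically found at CpG-dense promoters, and some of the peaks below cover Gli-responsive elements, so the sequences of 2 promoters and 4 annotated Gli sites are shown. RefSeq promoter sequences (GRCm38.p6) were matched for 7 of the 9 genes, all but Shh and Gli1. The promoters of Ptch1, with the most CpGs of the 7, and of Smo, which was not CpG-rich by the definition used below, are given as the 250 bases before the TSS, 5′ to 3′ on the strand of the gene (minus for Ptch1, plus for Smo), with each CpG in capitals. The Ptch1 stretch, at chr13:63565736-63565985, lies before the TSS of the shorter curated transcript and holds 41 CpGs. The Smo stretch, at chr6:29735247-29735496, holds 15.
Ptch1: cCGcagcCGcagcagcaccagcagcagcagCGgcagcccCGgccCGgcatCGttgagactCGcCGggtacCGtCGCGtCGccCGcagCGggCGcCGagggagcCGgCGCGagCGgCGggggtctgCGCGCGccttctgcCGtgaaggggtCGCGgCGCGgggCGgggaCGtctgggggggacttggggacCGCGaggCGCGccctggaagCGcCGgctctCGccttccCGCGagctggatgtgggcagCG
Smo: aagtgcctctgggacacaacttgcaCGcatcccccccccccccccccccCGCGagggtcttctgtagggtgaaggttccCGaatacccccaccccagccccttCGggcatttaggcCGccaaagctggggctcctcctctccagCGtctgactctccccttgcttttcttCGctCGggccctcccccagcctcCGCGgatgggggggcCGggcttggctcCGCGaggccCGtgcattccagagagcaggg

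Ptch1 and Hhip are direct targets of Gli factors, and RefSeq annotates conserved Gli motifs inside them. The 4 annotated sites are given with 30 bases on each side of the Ptch1 motifs and with 3 on each side of the Hhip span, all on the plus strand of GRCm38.p6. Both genes lie on the minus strand. Capitals mark the annotated motif in Ptch1 and, in Hhip, where the annotation spans a pair of motifs, the 9 bases closest to the Gli consensus GACCACCCA, the last of which falls in the flank. The coordinates are those of the annotated feature: chr13:63563078-63563086, chr13:63566433-63566444, chr13:63569282-63569293 and chr8:80056042-80056183, in the order shown. None of the 4 touches an exon.
Ptch1 site 1: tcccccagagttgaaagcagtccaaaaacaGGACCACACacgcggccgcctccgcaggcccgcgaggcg
Ptch1 site 2: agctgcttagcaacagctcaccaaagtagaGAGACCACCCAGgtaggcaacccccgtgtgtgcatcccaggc
Ptch1 site 3: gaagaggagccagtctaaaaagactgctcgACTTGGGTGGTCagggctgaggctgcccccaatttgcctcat
Hhip span: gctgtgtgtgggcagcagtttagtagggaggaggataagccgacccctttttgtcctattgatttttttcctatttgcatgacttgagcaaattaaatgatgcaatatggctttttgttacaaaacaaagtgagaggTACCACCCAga

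RING1B and SUZ12 peaks were found at promoters of all 9 Hedgehog genes and PCGF2 peaks at 8. Gli1 was the gene without a PCGF2 peak, so 8 of the 9 genes had peaks in all 3 lists. Over the whole annotation, promoters of 53.2% of genes had a RING1B peak, 24.8% a SUZ12 peak, 13.5% a PCGF2 peak and 13.4% peaks in all 3. Among genes with a CpG-rich promoter, defined as a CpG observed/expected ratio of at least 0.6 and a GC content of at least 50%, the shares were 87.8% for RING1B, 37.3% for SUZ12 and 19.9% for PCGF2. RING1B at 9 of 9 genes is thus near the share of CpG-rich promoters in general, while SUZ12 at 9 and PCGF2 at 8 are above both backgrounds. Within gene bodies, RING1B and SUZ12 peaks were found in 9 genes and PCGF2 peaks in 8, where 53.6%, 24.7% and 13.8% of all genes had one. A gene body begins at the TSS, so these counts include the promoter peaks and are not a separate result. Body peaks apart from the promoter peak lay only at Gli1, for RING1B and SUZ12, and at Gli2, for RING1B.

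**Figure D1:**
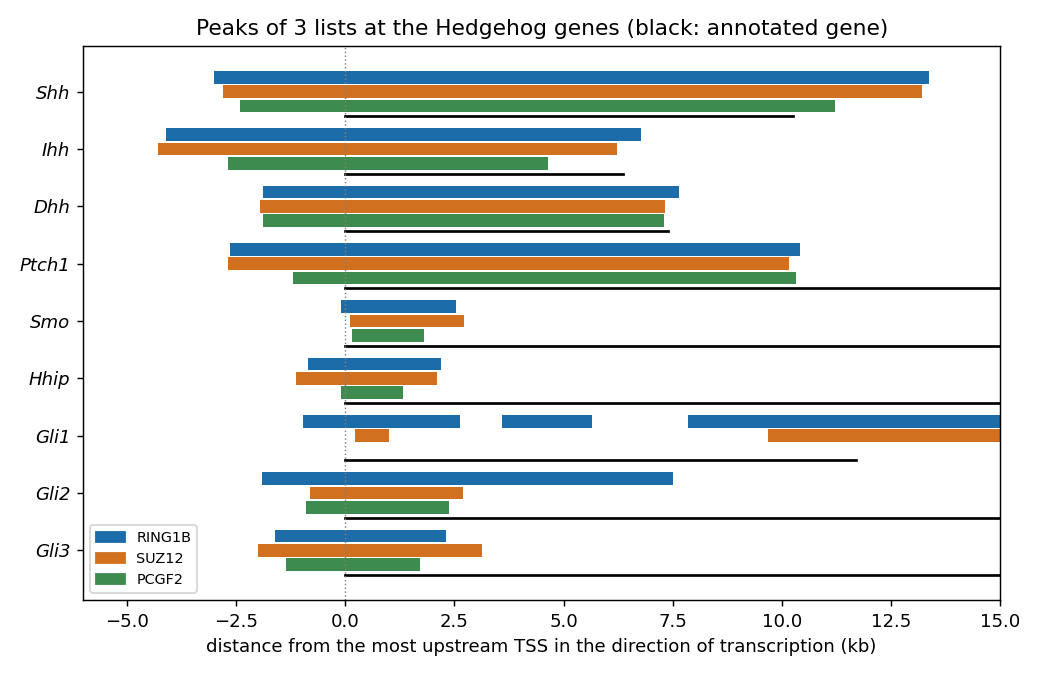
Peaks of RING1B (blue), SUZ12 (orange) and PCGF2 (green) at the 9 Hedgehog genes, by distance in kb from the most upstream curated TSS in the direction of transcription, with the annotated gene in black and everything cut at 15 kb. RING1B and SUZ12 peaks run over nearly the whole of the 3 ligand genes, over more than 10 kb of Ptch1 and only around the start of Smo, Hhip and Gli3, and Gli1 has no green bar.

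Of the promoter peaks of the 9 genes, those of Shh, Ihh, Dhh and Ptch1 were the widest in each list. Shh, the ligand of the floor plate and limb bud (chromosome 5, 28456840 to 28467101, minus strand), had a RING1B peak of 16387 bp, a SUZ12 peak of 16014 bp and a PCGF2 peak of 13609 bp. The RING1B peak ran from 3008 bp upstream of the TSS to 13378 bp downstream, past the 3′ end of the gene. It ranked 156 from the widest of its list, and the peaks of all 3 lists covered 100.0% of the gene and touched all 3 exons. The RING1B peak also held the TSS of 9530036O11Rik, an uncharacterised transcript on the opposite strand whose TSS lies 117 bp from that of Shh. The domain thus spans a divergent pair of promoters.

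Ihh, the ligand of cartilage growth (chromosome 1, 74945315 to 74951672, minus strand), had a RING1B peak of 10865 bp, a SUZ12 peak of 10497 bp and a PCGF2 peak of 7312 bp. RING1B covered 100.0% of the gene, SUZ12 97.8% and PCGF2 72.9%. PCGF2 touched 2 of the 3 exons and left the 3′ end of the gene uncovered.

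Dhh, the ligand of Sertoli and Schwann cells (chromosome 15, 98891155 to 98898540, minus strand), had a RING1B peak of 9508 bp, a SUZ12 peak of 9268 bp and a PCGF2 peak of 9165 bp. The ends of the 3 peaks nearly coincided. Upstream of the gene, the SUZ12 and PCGF2 peaks ended 69 and 4 bp from the RING1B peak, and downstream 309 and 347 bp from it. They covered 100.0%, 99.2% and 98.7% of the gene. For RING1B and SUZ12, all 3 ligand genes thus had at least 90% of the body under a single peak, and for PCGF2 this held for Shh and Dhh. Of the 2638 annotated genes between 6358 and 10262 bp long, the range of the ligand genes, 2.50% were covered to this extent by a RING1B peak, 2.65% by a SUZ12 peak and 1.90% by a PCGF2 peak.

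**Figure D2:**
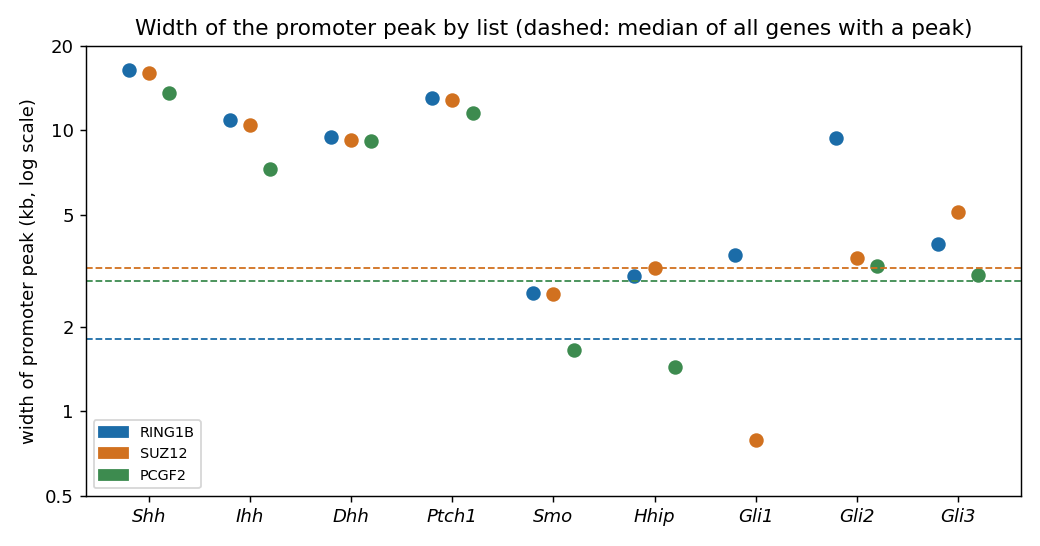
Width of the promoter peak in kb (log scale) for each Hedgehog gene in the RING1B (blue), SUZ12 (orange) and PCGF2 (green) lists, 1 point per gene and list, with dashed lines at the median of all genes that have a promoter peak in that list. The ligands and Ptch1 stand above the lines in all 3 lists, whereas Smo and Hhip lie above the RING1B line and below the SUZ12 and PCGF2 lines, and the Gli1 SUZ12 peak of 788 bp is the lowest point.

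Ptch1, the ligand receptor and a feedback inhibitor (chromosome 13, 63508328 to 63573460, minus strand), is a far longer gene than the ligands, at 65133 bp, and its peaks lay at the 5′ end. RING1B covered 13051 bp, SUZ12 12832 bp and PCGF2 11529 bp, and each peak joined both curated TSSs, at 63565735 and 63573460, into a single domain. In the gene itself the peaks covered 16.0%, 15.6% and 15.9% of the body. Smo, the signal transducer (chromosome 6, 29735497 to 29761366, plus strand), had narrower peaks, of 2626 bp for RING1B, 2610 bp for SUZ12 and 1655 bp for PCGF2. They lay to the 3′ side of the TSS. The RING1B peak reached only 91 bp upstream of it, and the SUZ12 and PCGF2 peaks began 105 bp and 153 bp inside the gene. Hhip, which binds and sequesters ligand at the cell surface (chromosome 8, 79965851 to 80058008, minus strand), had peaks of 3036 bp for RING1B, 3225 bp for SUZ12 and 1439 bp for PCGF2. All 3 covered the TSS, and the PCGF2 peak, wider than only 16.7% of its list, reached 104 bp upstream of it.

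Among the Gli genes, the lists were close in extent at Gli3 and far apart at Gli2 and Gli1. Gli3, the main repressor of the pathway (chromosome 13, 15463723 to 15730026, plus strand), had a SUZ12 peak of 5126 bp that enclosed both a RING1B peak of 3925 bp and a PCGF2 peak of 3060 bp. Gli2, the main activator (chromosome 1, 118834061 to 119053619, minus strand), had a RING1B peak of 9427 bp but SUZ12 and PCGF2 peaks of 3501 bp and 3278 bp. Its RING1B peak reached 4822 bp further into the gene than the SUZ12 peak and 5127 bp further than the PCGF2 peak, so SUZ12 covered 37.1% of it and PCGF2 34.8%. A second RING1B peak, of 480 bp, lay near the 3′ end of Gli2 and touched an exon, with no SUZ12 or PCGF2 peak over it.

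Gli1, a transcriptional amplifier of the response (chromosome 10, 127329882 to 127341579, minus strand), had a different arrangement. Its promoter had a RING1B peak of 3613 bp over the TSS, a SUZ12 peak of 788 bp that began 226 bp inside the gene, and no PCGF2 peak. The SUZ12 peak covered 21.8% of the RING1B peak. A further RING1B peak of 2070 bp lay wholly inside the gene over 5 of its 13 exons, with no peak of the other lists. The widest RING1B peak, of 11600 bp, covered the last 3838 bp of Gli1 and continued over a promoter of Arhgap9, a gene on the opposite strand. A SUZ12 peak of 7045 bp lay within it and shared 2008 bp with Gli1, and a PCGF2 peak of 3270 bp in it ended 1698 bp beyond the 3′ end of Gli1. Together the RING1B peaks covered 73.1% of Gli1, the SUZ12 peaks 23.9% and PCGF2 none.

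Set side by side, the promoter peaks of the 9 genes had a median width of 9427 bp in the RING1B list, 5126 bp in the SUZ12 list and, for 8 genes, 5295 bp in the PCGF2 list. The medians of all genes with a promoter peak were 1810 bp, 3232 bp and 2912 bp. Every Hedgehog gene exceeded this RING1B median. For SUZ12, Smo, Hhip and Gli1 fell below the median of genes with a promoter peak, Hhip by only a few bases, and for PCGF2, Smo and Hhip did. Peaks of at least 8000 bp lay at Shh, Ihh, Dhh, Ptch1 and Gli2 in the RING1B list, which is 5 of the 9 genes, at 4 genes in the SUZ12 list and at 3 in the PCGF2 list. Among all genes with a promoter peak in the list, 6.39% had one this wide for RING1B, 13.7% for SUZ12 and 13.7% for PCGF2. Of all genes, 13922 had a RING1B promoter peak but only 6487 a SUZ12 one, whereas all 9 Hedgehog genes had both. The RING1B median and share thus include many genes without SUZ12, and were not taken over genes with both. Because the lists were called by different rules, widths of different lists were not compared by a test.

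Within the RING1B promoter peaks, SUZ12 covered between 92.5% and 100.0% at 7 of the genes and 37.1% and 21.8% at Gli2 and Gli1. PCGF2 covered 96.4% at Dhh, 88.3% at Ptch1, 83.0% at Shh and 78.0% at Gli3. It covered less at Ihh (67.3%), Smo (63.0%), Hhip (47.4%) and Gli2 (34.8%). The PCGF2 peak was shorter than the RING1B peak at both ends at Shh, Ihh, Ptch1, Smo, Hhip, Gli2 and Gli3. Upstream and downstream, it fell short by 609 and 2169 bp at Shh, 1424 and 2129 bp at Ihh, 244 and 727 bp at Smo, and 746 and 851 bp at Hhip. At Gli2 it fell short by 1022 and 5127 bp, and at Gli3 by 259 and 606 bp. At Ptch1 it fell short by 1443 bp upstream and by only 79 bp downstream. Dhh was the exception, where the PCGF2 peak reached 4 bp past the RING1B peak upstream and fell short by 347 bp downstream. The lists were called by different rules, as described below, and whether these account for the distances was not tested.

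CpG content varied widely among promoters with these peaks. In the 300 bases from 250 before to 50 after the TSS, CpG observed/expected was 1.12 at Gli3, 1.09 at Ptch1, 0.83 at Gli2, 0.774 at Ihh, 0.747 at Hhip, 0.504 at Smo and 0.438 at Dhh. The median of the 7 genes was 0.774, and that of all 32851 promoters in the table was 0.384. Ptch1 had 47 CpGs in this window, Smo 17 and Dhh 12. By the definition above, 5 of the 7 promoters were CpG-rich, as were 46.4% of the 19528 annotated genes in the table, and Smo and Dhh were not. With 500 bp on either side of the TSS, the ratio was 0.612 at Smo and 0.589 at Hhip, so these genes changed sides of the 0.6 limit. Dhh, with the lowest ratio, nevertheless had peaks of 9165 to 9508 bp, whereas Gli3, with the highest, had peaks of 3060 to 5126 bp. The order of the widths was thus not the order of the ratios. Over whole RING1B peaks the ratio ran from 0.443 at Dhh to 0.773 at Gli3. The median was 0.472 over the 9 genes and 0.518 over all RING1B peaks, and 3 of the 9 lay above the latter. These sets differ in width, with medians of 9427 bp and 1495 bp, and the ratio was not compared at equal width.

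Promoters were also searched on both strands for GACCACCCA, the Gli consensus, and for CACGTG, the palindromic E-box bound by MAX and MGA. The Gli consensus was in 0 of the 7 promoters and in 0.253% of all promoters in the table. The E-box was in 0 of the 7 and in 7.15% of all. With no match of either, none overlapped, and a missing match says only that these letters were not in this window of 300 bases.

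The annotated Gli sites of Ptch1 lay further out, with sites 2 and 3 inside the peaks of all 3 lists and site 1 under RING1B only. Site 2, 703 bp upstream of the TSS of the shorter transcript and within an intron of the longer one, held the consensus on the plus strand. Site 3, 3552 bp upstream of the same TSS, held it on the minus strand. The annotated enhancers around them were covered to 100.0% by all 3 lists, at 63566294 to 63566473 and 63568782 to 63569843. Site 1 lay 2653 bp downstream of the TSS, at the edge of the domain. The 9 bases closest to the consensus there, GACCACACA, differed from it at 1 base and were shifted by 1 base from the annotated motif, so that the last of them lies in the flank. The RING1B peak began just before it and covered 43.1% of its enhancer (63562843 to 63563211), PCGF2 covered 21.7% of that enhancer but not the motif, and the SUZ12 peak began 97 bp beyond that enhancer. At Hhip, the best match also differed at 1 of 9 bases, and its last base lay just outside the annotated span. That span lay 1896 bp downstream of the TSS in an intron. RING1B covered 88.0% of the Gli-inducible enhancer that holds it (80055734 to 80056476) and SUZ12 76.4%, while the PCGF2 peak stopped 198 bp short of the enhancer. A further annotated Hedgehog-responsive enhancer, 256.9 kb upstream of Hhip at 80314345 to 80315451, had no peak in any list.

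**Figure D3:**
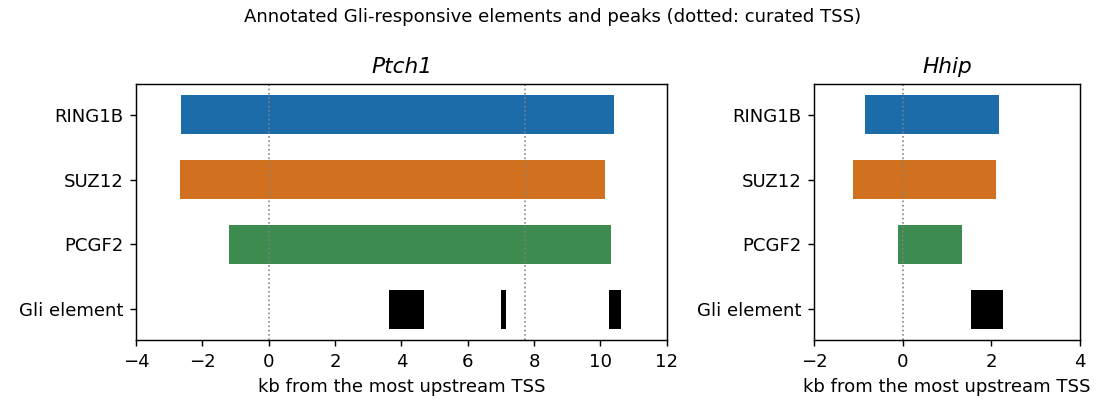
Gli-responsive elements annotated in RefSeq (black) and peaks of the 3 lists at Ptch1 (left) and Hhip (right), by distance in kb from the most upstream TSS in the direction of transcription, with dotted lines at curated TSSs. At Ptch1 the 2 elements nearer the most upstream TSS lie inside all 3 peaks and the remaining element straddles the inner end of the domain, and at Hhip the element lies under RING1B and SUZ12 and beyond PCGF2.

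Shh is controlled by enhancers spread over a large gene-poor interval upstream of it, and 11 functional elements are annotated in RefSeq within 1 Mb of its TSS. Only the brain enhancer region in intron 2 (28458815 to 28460113), which acts in the floor plate and midbrain, overlapped peaks, and it was covered in full by all 3 lists. The other 10 had no peak in any list. The closest of these, floor plate enhancer 1 at 28476090 to 28477188, lay 5.98 kb beyond the edge of the RING1B domain. The lung-gut enhancer lay 92.5 kb from a RING1B peak, brain enhancer 2, of the ventral diencephalon, 319 kb, and the limb enhancer of the zone of polarising activity (29314497 to 29315862, within Lmbr1, 848.1 kb upstream of Shh) 62.0 kb. Across the genome, 24.8% of 888 annotated elements overlapped a RING1B peak, 11.1% a SUZ12 peak and 6.76% a PCGF2 peak. The 11 elements all belong to a single locus.

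The Shh domain stood alone over a long distance on its upstream side. Upstream of the gene no RING1B peak was found for 725 kb, no SUZ12 peak for 996 kb and no PCGF2 peak for 998 kb. Of 18622 intervals between neighbouring RING1B peaks, 3.71% were at least as long as this one, and the median was 37.5 kb. The share was 8.13% for SUZ12 and 20.4% for PCGF2, whose peaks are sparser. On the other side, the next RING1B peak was 136 kb away and the next SUZ12 peak 242 kb. RING1B peaks that also overlapped SUZ12 within 1 Mb of the TSS lay at promoters of Htr5a, a serotonin receptor gene (579 bp), En2, a midbrain-hindbrain homeobox gene (20732 bp), Cnpy1 (4234 bp) and Mnx1, a motor neuron homeobox gene (17050 bp), and in an intergenic region nearest to Insig1 (10268 bp, 28116350 to 28126617). The RING1B peaks at Rnf32, Lmbr1 and Nom1, between Shh and Mnx1, had no SUZ12 or PCGF2 peak and were 1296, 1136 and 1127 bp wide.

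**Figure D4:**
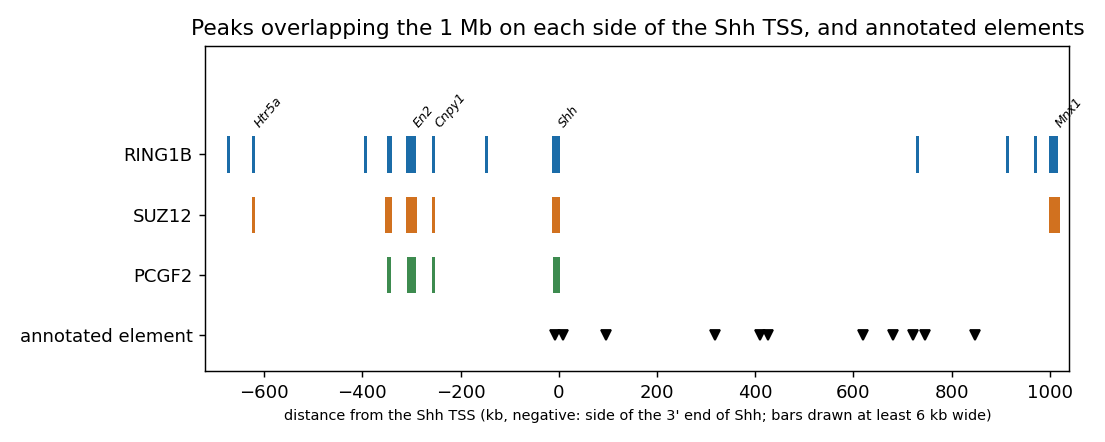
RING1B, SUZ12 and PCGF2 peaks that overlap the 1 Mb on either side of the Shh TSS, and RefSeq functional elements (triangles, at their midpoints), by distance in kb. Negative values point toward the 3′ end of Shh, and bars are drawn at least 6 kb wide. Gene names mark RING1B peaks at promoters that overlap SUZ12. PCGF2 peaks at Mnx1 start just beyond 1 Mb and are not drawn, though the axis reaches past them. Of the 11 triangles, 10 sit in the interval to the right of the Shh domain, and none of these overlaps a peak.

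The other Hedgehog domains differed in how close their neighbours were. The nearest other RING1B peak was 8.75 kb away at Dhh, 9.11 kb at Ihh, 8.83 kb at Gli2 and 15.9 kb at Smo. It was 65.8 kb away at Ptch1, 293 kb at Gli3 and 344 kb at Hhip. On its farther side, Gli3 had no RING1B peak for 939 kb, longer than the 725 kb upstream of Shh. The promoter peak of Gli1 lay 0.952 kb from the RING1B peak of 2070 bp inside the same gene. On the other flank of Gli1, the next RING1B peak was 7.62 kb away. Neighbouring SUZ12 peaks were farther off, in a list with fewer peaks. Over all intervals between neighbouring peaks, the median was 124 kb for SUZ12 and 326 kb for PCGF2, against 37.5 kb for RING1B. At Gli2 the nearest SUZ12 peak was 363 kb away. Its other flank was free of SUZ12 peaks for 6630 kb and of PCGF2 peaks for 12300 kb. At Ptch1 the nearest SUZ12 peaks were 586 and 675 kb away, at Hhip 551 and 656 kb and at Gli3 543 and 938 kb. SUZ12 neighbours lay closer at Smo, 30.4 and 39.4 kb away, at Ihh, 41.2 and 184 kb, and at Dhh, 80.8 and 152 kb. At Gli1 the SUZ12 promoter peak lay 8.68 kb from the SUZ12 peak of 7045 bp that overlaps the same gene. On its other flank the next SUZ12 peak was 166 kb away.

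Genes elsewhere with the most similar promoter peak widths over the 3 lists, measured as the sum of absolute differences in log2 width, were found for the 8 Hedgehog genes with peaks in all lists. The closest to Shh was Otx2, a forebrain homeobox gene, with a sum of 0.049. For Ihh it was Rfx4 (0.064), for Dhh Slitrk5 (0.1), for Ptch1 Sox6 (0.1), for Smo Gm2061 (0.082), for Hhip Gm26684 (0.072) and for Gli3 Gm35162 (0.13). For Gli2 the closest was Kcnn1, a potassium channel gene, at 0.47, a larger sum than for the other 7.

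A list of 32 further pathway genes was examined by role. Of these, 29 had a RING1B peak at a promoter, 18 a SUZ12 peak and 16 a PCGF2 peak, and the same 16 had peaks in all 3 lists. These counts stand beside the shares given above for all genes (53.2%, 24.8%, 13.5% and 13.4%) and for CpG-rich promoters (87.8%, 37.3% and 19.9%), and RING1B at 29 of 32 is near the latter. Without the Gli targets, the counts were 19, 9 and 7 of 22. The Gli targets in development were almost all in the 3 lists. Of 10, 10 had RING1B and 9 had SUZ12 and PCGF2, with RING1B peaks of 45577 bp at Hand2, of the heart and limb, 22819 bp at Foxa2, of the floor plate and endoderm, 21941 bp at Foxf1, of lung mesoderm, 21165 bp at Nkx2-2 and 17784 bp at Olig2, both of ventral neural progenitors, and 15487 bp at Osr1. Ccnd2 (11771 bp), Ccnd1 (7263 bp) and Bcl2 (5896 bp), which act in the cell cycle and survival, also had all 3. Mycn, of the Myc family, had a RING1B peak of 6828 bp and no peak of the other lists.

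Of 5 genes for processing and release of ligands, 4 had peaks in all 3 lists, which were Hhat, the ligand palmitoyltransferase, and Scube1, Scube2 and Scube3, which release ligand. Disp1, the ligand exporter, had only a RING1B peak, of 551 bp. Of 4 co-receptor genes, Gas1, Boc and Lrp2 had all 3, with RING1B peaks of 7677, 4220 and 8231 bp. Cdon had no peak at a curated promoter.

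Of 11 genes that act between Smo and the Gli factors, 9 had a RING1B peak, 2 a SUZ12 peak and 0 a PCGF2 peak, beside 53.2%, 24.8% and 13.5% of all genes. The SUZ12 peak belonged to Evc and Evc2, ciliary proteins that bind SMO, whose promoters share a single RING1B peak of 2911 bp and a single SUZ12 peak of 2649 bp. RING1B alone was found at Sufu, the main restraint on Gli factors (2061 bp), Kif7, the ciliary tip kinesin (1189 bp, with a SUZ12 peak when the window was widened to 5000 bp or predicted transcripts were included), the SMO-binding arrestin gene Arrb2 (2252 bp), the ubiquitin ligase genes Spop (4569 bp) and Btrc (375 bp), and the kinase genes Csnk1a1 (1087 bp) and Gsk3b (3016 bp). Prkaca, the catalytic subunit of protein kinase A, and Gpr161, a ciliary receptor upstream of it, had no peak at a curated promoter. Both genes of ciliary transport, Ift88 (1169 bp) and Kif3a (764 bp), had RING1B alone.

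**Figure D5:**
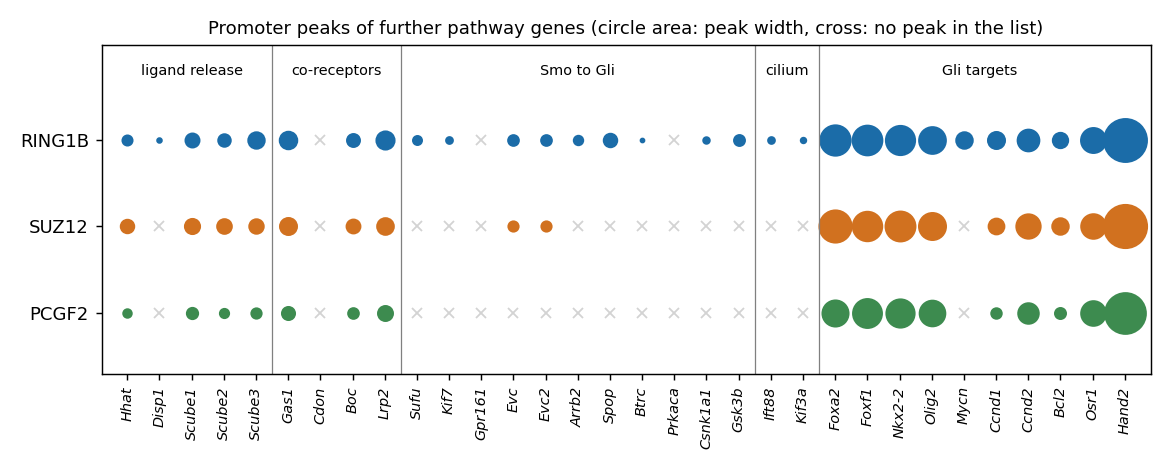
Promoter peaks of 32 further pathway genes in the RING1B, SUZ12 and PCGF2 lists, grouped by role, with the area of each circle in proportion to the width of the widest promoter peak and a cross where the list has none. The Gli targets carry the largest circles in all 3 rows, and the genes from Smo to Gli and of the cilium have crosses in the PCGF2 row throughout.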

How the data were processed

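Calibrated ChIP-seq libraries of untreated PRC1CPM and PRC1CKO ESCs were aligned by the authors with Bowtie 2, and peaks were called with MACS2 in broad mode. RING1B and SUZ12 peaks were called by the authors on merged replicates and kept if present in both lines, and RING1B peaks were further kept only if signal fell on tamoxifen in PRC1CKO. PCGF2 peaks were called in each replicate and kept if present in all. The deposited values are peak starts and ends in bp on mm10, with no other unit. Grouping followed the sample labels. Of the peaks on assembled chromosomes, 0 ran past an end in GRCm38.p6. Overlaps with curated RefSeq TSSs and gene spans were computed in Python 3.11.15 and drawn with matplotlib 3.10.9. The overlap search was tested on simulated data, where 0 of 6000 searches differed from brute force. Functional elements were those of RefSeq, and these, the 8000 bp width and the neighbour distances were chosen after peak positions had been seen. The 90% share of a gene body and the comparison with genes as long as the ligand genes were not planned beforehand either. The 9 genes and the further list were chosen with earlier results of these data known, and 1 gene of the further list is not reported here. Named other genes were those that share a RING1B promoter peak, lie at RING1B peaks with SUZ12 within 1 Mb of Shh or are most alike in width, and pathway genes by list. Others named beside Shh or Gli1 were chosen after their values were seen. Alternatives changed the promoter window, overlap, transcripts, peak filters, merging and sequence window.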

Additional observations from a re-analysis of the deposited data

How the results depend on the processing

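The counts of Hedgehog and further genes with peaks stayed within 1.5 times their values under every alternative tried. The calls that changed for the 9 genes were few. Requiring the peak to cover the TSS base itself removed Smo from the SUZ12 and PCGF2 lists and Gli1 from the SUZ12 list. Keeping peaks of at least 1000 bp only, or leaving out the narrowest 25% of each list, removed the SUZ12 peak of Gli1, and the latter also removed the PCGF2 peaks of Smo and Hhip. With predicted transcripts included, Gpr161 had peaks in all 3 lists, Cdon a RING1B peak and Kif7 a SUZ12 peak, so their calls hold for curated promoters only. Kif7 also gained SUZ12 with a window of 5000 bp. The median promoter CpG observed/expected fell to 0.676 with 500 bp on either side of the TSS, and was 0.472 over the whole RING1B peak. The cause was not tested. No paired analysis was possible because each set of peak positions is combined over its replicates and holds no value per sample. Depth and peak height were not given by the lists, so weak and absent binding cannot be told apart.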
